A study of Rattus norvegicus with 160 samples.

Results

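Low responder (LR) pups fostered to a high responder (HR) dam were compared with LR pups fostered to another LR dam, in the hippocampus at postnatal day 7 (P07). The comparison rests on 10 of the 160 arrays of the study: 5 of LR pups raised by a foster HR dam (LR-HR) and 5 of LR pups raised by a foster LR dam (LR-LR), chosen by their labels alone. All pups were male Sprague-Dawley rats of selectively bred lines, and each array carried RNA of whole hippocampus cut from frozen sections 300 µm thick. Beside these groups the study profiled LR pups and HR pups that were not fostered, with 5 arrays of each at P07, and repeated the 4 rearing groups at P14, P21 and adulthood, and in the amygdala. Fostering itself is therefore shared by LR-HR and LR-LR, and by their labels they differ in the line of the foster dam. The labels do not give litters or individual dams, so these cannot be told apart from the line of the dam.

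The LR and HR lines were bred for how much rats move about in an unfamiliar place, and LR rats are the line with more anxiety-like behaviour. The first postnatal weeks are a time of heavy dependence on the dam, whose licking, nursing and retrieval of pups are known to act on the developing brain. In the hippocampus, which serves memory and restrains the stress axis, this is when excitatory and inhibitory synapses form, axons and dendrites grow, and astrocytes mature, before most myelin is laid down. Cross-fostering is the classical way to separate the line of a pup from the line of the animal that rears it.

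Expression was measured on 1-colour NimbleGen arrays, and the values are log2 of the deposited intensities. Of 25897 transcripts tested, 9505 could be matched to a gene symbol. Array medians lay between 120.8 and 129 intensity units, and the array's random-sequence control probe set lay between 5.73 and 6.05 on the log2 scale. Each array correlated with the others of its own group at a median r of 0.873 to 0.924 across transcripts. In all 4 groups the replicate 1, 2 and 5 arrays correlated more with same-numbered arrays of other groups than with their own group. The gap was widest for replicate 5 (median r of 0.929 to 0.945 with the same number, against 0.873 to 0.896 within the group), and the main counts are also given without replicate 5. Of 11 markers of hippocampal principal neurons, 10 lay above the random control on all 20 arrays at P07, and Wfs1 on 19 of them. That control is a low bar, since 23324 of the 25897 transcripts had a mean above its mean at P07. The markers therefore show signal and cannot show tissue identity. In whole hippocampus, fewer cells of a type and less RNA per cell cannot be told apart. Nothing in the labels says whether the pups of a group came from separate litters, so the tests measure the spread between these pups.

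LR-HR and LR-LR hippocampi differed in 754 transcripts, 2.91% of those tested, at an adjusted p under 0.05 by limma with Benjamini-Hochberg adjustment. Of these, 576 (2.22%) were higher in LR-HR and 178 (0.687%) were lower, while the median change over all transcripts was -0.04. Among the transcripts with a gene symbol, 311 were higher and 19 were lower, together 3.47% of them. The counts of gene lists below are to be read against this share, which is not matched to the lists for level. In a fit of only the 12948 transcripts above the median level, 901 were called, so brighter lists have a higher share to be read against. The median rise was 1.27 and the median fall -1.12 on the log2 scale. The 5 LR-HR arrays did not overlap the 5 LR-LR arrays in 344 of the rises and 135 of the falls, against 3.78% of all transcripts tested. With the replicate number as a block, 2263 transcripts (8.74%) passed, 1515 of them (5.85%) higher and 748 (2.89%) lower, and all 754 were among them. The block leaves each change as it was, so the direction could not differ. Blocked list counts below are set beside the 8.74%, a share of all transcripts, while the lists hold only named ones. Without the block the named share was the higher (3.47% against 2.91%), and the blocked share of named transcripts is not given. The count of 754 depended on single arrays. It was 452 without LR-HR replicate 3 and 414 without LR-HR replicate 5. It was 452, 418, 468 and 444 without LR-LR replicates 1, 2, 3 and 4, 1369 without LR-LR replicate 5, and 1087 without replicate 5 of every group.

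**Figure D1:**
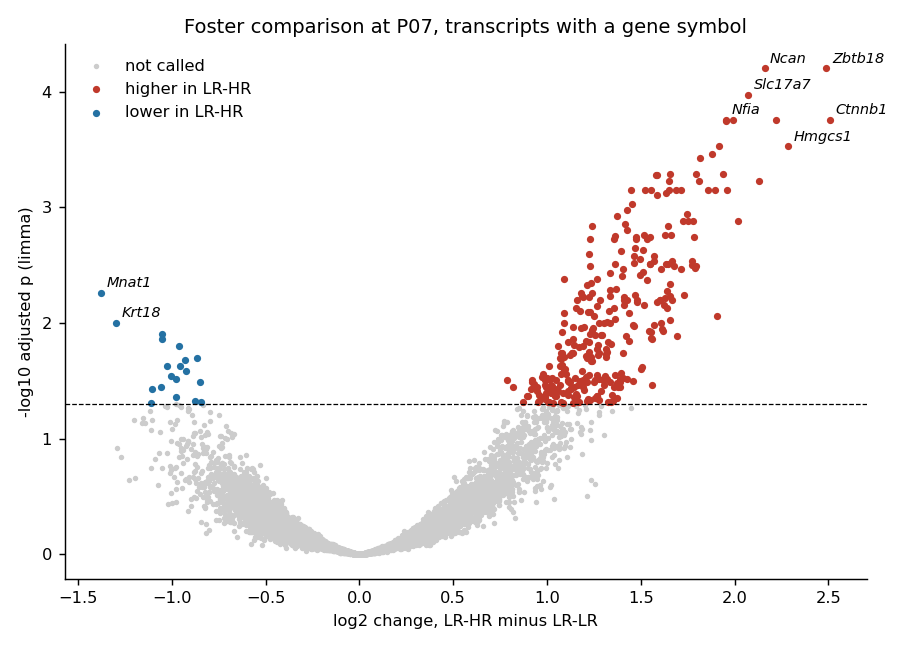
Each point is a transcript with a gene symbol, placed by its log2 change (LR-HR minus LR-LR, horizontal) and the negative log10 of its limma adjusted p (vertical). Red points were higher and blue points lower in LR-HR, and the dashed line marks an adjusted p of 0.05. Among these named transcripts 311 rose and 19 fell, while over all transcripts tested the counts were 576 and 178.

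The promoters of the named rises were rich in G and C. Of 309 genes, 238 had an entry in the RefSeq promoter table (build GRCr8, 250 bases before to 50 after the annotated start), with a median G and C content of 66% and a median of 26 CpG sites. All named genes tested had 57% and 15 CpG sites over 7632 promoters. The GC box, read as GGGCGG on either strand (CCGCCC on the other), stood in 72.7% of the promoters of rises, against 47% of those of all named genes tested and 34.9% of all 27457 promoters in the table. Of the 16 promoters of named falls, 37.5% held it. The rises also had higher levels, with a median log2 intensity of 8.87 against 6.93 for all named transcripts, and longer gene spans, with a median of 33 kb against 15.5 kb, and the part of these in the promoter difference was not tested. The CCAAT box (CCAAT or ATTGG) was in 39.1% of both the rises' promoters and those of all named genes, the TATA box (TATAAA or TTTATA) in 6.3% against 13.4%, and the palindromic cyclic AMP response element (TGACGTCA) in 5.04% against 2.52%. These motifs are letters in a window, not shown binding sites. Promoters of 4 leading rises and of the fall Krt18 are printed to show how the number of GC boxes (in capitals) varies, all on the + strand: Zbtb18 at chr13:91971352-91971651 with 12 GC boxes, counting overlapping ones, Hmgcs1 at chr2:53382054-53382353 with 4, Slc17a7 at chr1:104785955-104786254 with 3, Ncan at chr16:19335657-19335956 with 1 and Krt18 at chr7:135035918-135036217 with 1.
Zbtb18: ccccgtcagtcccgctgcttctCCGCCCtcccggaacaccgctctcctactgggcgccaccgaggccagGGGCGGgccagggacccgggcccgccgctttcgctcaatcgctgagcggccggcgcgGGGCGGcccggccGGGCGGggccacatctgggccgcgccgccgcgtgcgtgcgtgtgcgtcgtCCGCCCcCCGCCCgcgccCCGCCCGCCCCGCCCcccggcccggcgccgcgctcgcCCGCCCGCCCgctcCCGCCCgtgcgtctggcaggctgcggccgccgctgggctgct
Hmgcs1: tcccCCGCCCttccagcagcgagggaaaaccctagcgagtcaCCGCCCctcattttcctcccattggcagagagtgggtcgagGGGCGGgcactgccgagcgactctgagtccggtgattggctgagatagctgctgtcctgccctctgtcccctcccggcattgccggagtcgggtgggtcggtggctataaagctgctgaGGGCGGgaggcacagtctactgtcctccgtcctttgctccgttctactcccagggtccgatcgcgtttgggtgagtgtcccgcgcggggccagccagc
Slc17a7: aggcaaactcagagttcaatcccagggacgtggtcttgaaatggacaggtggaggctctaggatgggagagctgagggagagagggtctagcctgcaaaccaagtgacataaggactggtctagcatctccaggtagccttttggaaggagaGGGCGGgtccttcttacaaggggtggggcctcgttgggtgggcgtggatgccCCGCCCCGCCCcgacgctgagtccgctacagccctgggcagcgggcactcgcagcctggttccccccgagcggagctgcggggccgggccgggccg
Ncan: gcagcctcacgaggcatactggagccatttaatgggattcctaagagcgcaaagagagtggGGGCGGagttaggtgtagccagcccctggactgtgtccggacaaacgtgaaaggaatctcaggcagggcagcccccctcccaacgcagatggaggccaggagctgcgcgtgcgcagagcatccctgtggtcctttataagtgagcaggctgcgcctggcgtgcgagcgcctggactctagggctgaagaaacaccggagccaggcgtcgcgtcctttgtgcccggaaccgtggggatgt
Krt18: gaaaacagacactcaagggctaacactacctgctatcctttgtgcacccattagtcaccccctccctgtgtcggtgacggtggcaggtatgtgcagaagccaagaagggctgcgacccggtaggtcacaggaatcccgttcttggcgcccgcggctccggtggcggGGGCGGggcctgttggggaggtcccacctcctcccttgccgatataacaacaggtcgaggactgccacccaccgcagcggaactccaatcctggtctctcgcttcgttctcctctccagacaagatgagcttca

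The largest named rise was that of Ctnnb1, which encodes beta-catenin, the protein that links cadherins to the cytoskeleton and carries the canonical Wnt signal. Its log2 intensity was 10.21, 10.08, 10.53, 10.63 and 10.72 in LR-HR hippocampi, against 8.77, 7.50, 7.27, 6.91 and 9.17 in LR-LR hippocampi. All 5 LR-HR arrays lay above all 5 LR-LR arrays, among which replicates 1 and 5 were the highest. The log2 change was 2.51 ± 0.33 (SE), adjusted p = 0.000175 by limma. Zbtb18, a zinc finger repressor that cortical and hippocampal neurons need to differentiate, read 10.02, 10.15, 10.49, 10.34 and 11.01 in LR-HR hippocampi, against 7.62, 7.54, 7.78, 7.65 and 8.97 in LR-LR hippocampi. No arrays overlapped between the groups, and LR-LR replicate 5 stood well above the other LR-LR arrays. The change of Zbtb18 was 2.49 ± 0.28 (SE), adjusted p = 6.27e-05. Nfia, a nuclear factor of glial and neuronal differentiation, read 9.60, 9.33, 9.79, 9.84 and 9.62 in LR-HR hippocampi, against 7.59, 7.30, 7.55, 7.34 and 8.62 in LR-LR hippocampi. Again no arrays overlapped, with LR-LR replicate 5 the highest of its group, and the change was 1.96 ± 0.26 (SE), adjusted p = 0.000175.

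Several of the other leading rises encode proteins of the neuronal surface and of neuronal signalling. Opcml, an adhesion molecule of the IgLON family anchored to the membrane, read 8.92, 9.02, 9.02, 9.40 and 9.76 in LR-HR hippocampi, against 6.76, 6.75, 6.89, 6.34 and 8.27 in LR-LR hippocampi. Gpm6a, a membrane glycoprotein that promotes neurite growth, read 11.46, 11.64, 11.85, 11.86 and 12.23 in LR-HR hippocampi, against 8.97, 9.45, 9.38, 9.50 and 11.08 in LR-LR hippocampi. In both genes the groups did not overlap and LR-LR replicate 5 was far above the other LR-LR arrays. The changes were 2.22 ± 0.29 (SE), adjusted p = 0.000175 for Opcml, and 2.13 ± 0.33 (SE), adjusted p = 0.000596 for Gpm6a. Nrn1, neuritin, a small activity-regulated protein of neurite outgrowth, averaged 9.59 ± 0.34 in LR-HR and 7.60 ± 0.54 in LR-LR (SD, n = 5 each), and its change was 1.99 ± 0.27 (SE), adjusted p = 0.000175. Ywhag, the gamma form of the 14-3-3 adaptor proteins, averaged 11.56 ± 0.32 in LR-HR and 9.61 ± 0.58 in LR-LR (SD, n = 5 each), and its change was 1.95 ± 0.26 (SE), adjusted p = 0.000178. No LR-HR array overlapped an LR-LR array in either gene. Each of the 12 largest named rises kept its call when any 1 of the 10 arrays was left out, with adjusted p of at most 0.00649, reached by Prkacb without LR-LR replicate 4.

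**Figure D2:**
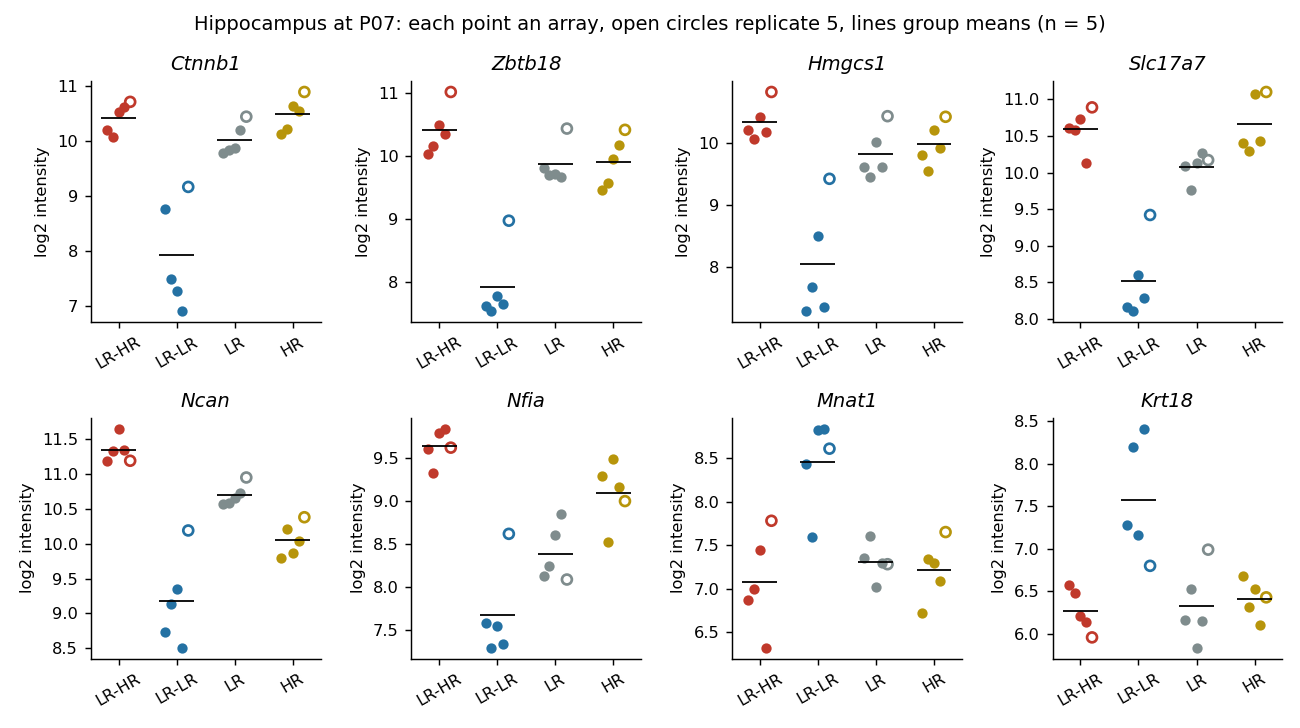
Each panel shows the log2 intensity of a gene (vertical) on every P07 hippocampal array, by rearing group (horizontal, LR-HR, LR-LR, LR and HR). Points are arrays, open circles are replicate 5 and lines are group means (n = 5), and in 7 of the 8 panels, Mnat1 being the other, the LR-HR and LR-LR points do not overlap.

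At glutamate synapses, Slc17a7, the transporter VGLUT1 that fills synaptic vesicles with glutamate, had the largest change. It read 10.61, 10.58, 10.73, 10.13 and 10.89 in LR-HR hippocampi, against 8.16, 8.11, 8.60, 8.28 and 9.42 in LR-LR hippocampi. The lowest LR-HR array, replicate 4, still exceeded the highest LR-LR array, replicate 5. The change was 2.07 ± 0.26 (SE), adjusted p = 0.000106. Of 9 genes of glutamate transport and vesicular loading, 4 rose and none fell, with a median change of 1.09, and 7 passed with the replicate block. The count of rises was 7 without LR-LR replicate 5 and 6 without replicate 5 of every group. The others that rose were Slc1a3 (1.79), the astrocyte glutamate transporter GLAST, Glud1 (1.16), glutamate dehydrogenase, and Glul (1.05), the glutamine synthetase of astrocytes. The other vesicular glutamate transporters Slc17a6 and Slc17a8 had changes of 0.12 and -0.53 and did not pass. Glul lost its call without any 1 of 7 of the arrays, at worst without LR-HR replicate 5 (adjusted p = 0.119).

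Of 31 glutamate receptor subunits and scaffold proteins, 5 rose and none fell, against 3.47% of all named transcripts called. The median change was 0.75, and 14 passed with the replicate block, against 8.74% of all transcripts. The largest changes belonged to scaffolds. Dlg4, which encodes PSD-95, the main scaffold of the excitatory postsynaptic density, read 8.82, 9.02, 9.20, 9.37 and 9.71 in LR-HR hippocampi, against 7.14, 6.98, 6.78, 7.75 and 8.48 in LR-LR hippocampi. The groups did not overlap, and the change was 1.80 ± 0.34 (SE), adjusted p = 0.00319. Its relative Dlg2, PSD-93, read 8.55, 8.11, 8.45, 7.87 and 8.96 in LR-HR hippocampi, against 6.41, 6.71, 6.86, 6.40 and 6.95 in LR-LR hippocampi. No arrays overlapped, and the change was 1.72 ± 0.29 (SE), adjusted p = 0.00132. Nsf (1.19), the ATPase that recycles SNARE proteins and binds AMPA receptors, and the NMDA receptor subunits Grin2d (1.10) and Grin2a (0.98) made up the rest. Grin1 (1.18), the obligatory NMDA subunit, Gria1 (0.98), an AMPA subunit, and the scaffold Homer1 (1.07) passed only with the block. Gria2 had a change of 0.12 and Grik3 of -0.47, neither of which passed. Nsf and Grin2d lost their calls without single arrays, with adjusted p up to 0.0879 without LR-HR replicate 5 and 0.0814 without LR-LR replicate 1. The count of rises was 2 or 3 without any 1 of the arrays but LR-HR replicate 4 and LR-LR replicate 5. It was 11 without LR-LR replicate 5 and 10 without replicate 5 of every group.

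Genes of inhibitory synapses were also among the rises. Of 23 genes of GABA synthesis, transport and reception, 6 rose and none fell, with a median change of 0.79, and 13 passed with the replicate block. Gabbr1, a subunit of the metabotropic GABA-B receptor, read 10.79, 10.83, 11.16, 10.71 and 11.15 in LR-HR hippocampi, against 9.35, 9.73, 9.29, 8.36 and 10.34 in LR-LR hippocampi. All 5 LR-HR arrays lay above all 5 LR-LR arrays. Both subunits of this receptor rose, Gabbr1 by 1.51 ± 0.28 (SE), adjusted p = 0.00232, and Gabbr2 by 1.43 ± 0.31 (SE), adjusted p = 0.00825. Gphn, gephyrin, which anchors GABA-A and glycine receptors, rose by 1.46 ± 0.32 (SE), adjusted p = 0.0106, with its LR-LR replicate 3 at or below the random control. The astrocyte GABA transporter Slc6a11 (1.28) was another of the rises. Gad1, the main GABA-synthesising enzyme, read 7.60, 8.24, 8.49, 8.55 and 8.84 in LR-HR hippocampi, against 6.62, 6.48, 8.31, 7.21 and 7.95 in LR-LR hippocampi. These arrays overlapped, and its change of 1.03 ± 0.36 (SE), adjusted p = 0.145, did not pass, although it did with the replicate block (adjusted p = 0.012). The count of rises was 4 without LR-HR replicate 5 and 7 without replicate 5 of every group.

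Genes of the synaptic vesicle and its fusion gave the highest count of the neuronal lists. Of 33 measured, 12 rose and none fell, with a median change of 0.81, and 18 passed with the replicate block. Syt11, a synaptotagmin that does not sense calcium, read 9.32, 9.59, 9.76, 9.34 and 10.03 in LR-HR hippocampi, against 6.85, 7.35, 8.23, 7.08 and 8.74 in LR-LR hippocampi. Arrays of the groups did not overlap, LR-LR replicates 3 and 5 being the highest of their group, and the change was 1.96 ± 0.31 (SE), adjusted p = 0.000708. Nlgn2, the neuroligin of inhibitory synapses, rose by 1.91 ± 0.41 (SE), adjusted p = 0.00868, but its LR-LR replicate 5 lay within the LR-HR range of 9.49 to 11.14. Syt4 (1.78), at or below the random control on 1 LR-LR array, the calcium sensor Syt1 (1.65), the SNARE protein Vamp2 (1.64), and synaptophysin, Syp (1.32), also rose. Snap25 (1.04) passed only with the block, and Bsn (0.13), Rims1 (0.30) and Cplx2 (-0.36) passed in neither fit. The list mean on the array was 9.19 to 9.95 in LR-HR and 8.24 to 9.34 in LR-LR, where replicate 5 alone exceeded the lowest LR-HR arrays. The count was 9 at its lowest, among others without LR-HR replicate 3, and 15 without replicate 5 of every group.

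**Figure D3:**
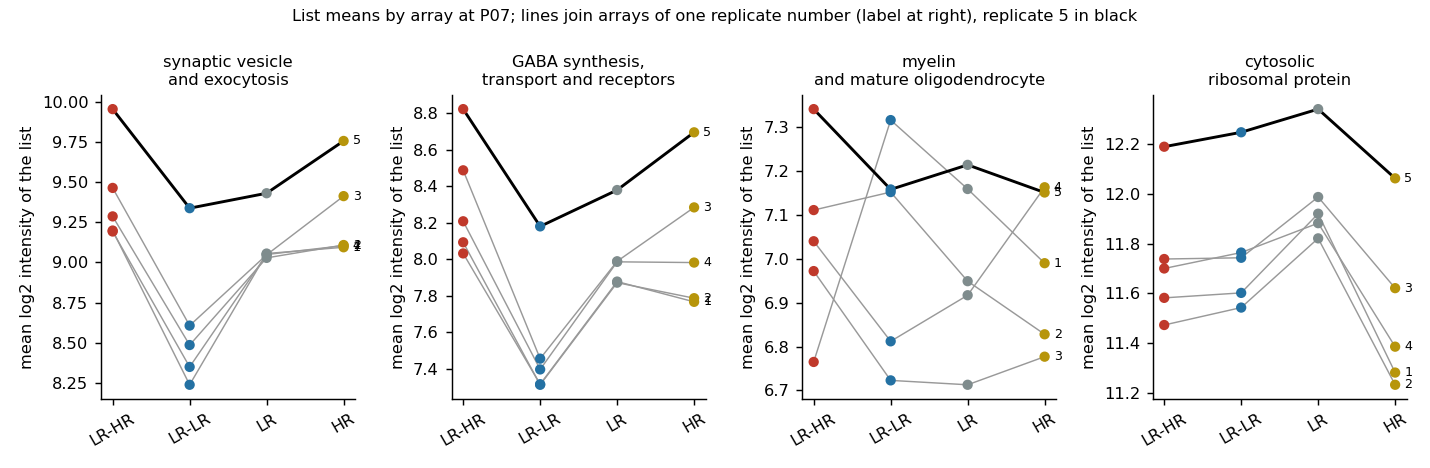
Each panel plots the mean log2 intensity of a gene list (vertical) on every P07 array against the rearing group (horizontal), with lines joining arrays of one replicate number and replicate 5 in black. For synaptic vesicle and GABA genes all 5 lines are higher at LR-HR than at LR-LR, while myelin and ribosomal protein genes show no common direction of that size.

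Signalling downstream of calcium and cyclic AMP was also represented. Of 24 genes of calcium and calmodulin signalling, 5 rose and none fell, with a median change of 0.63, and 12 passed with the replicate block. Prkacb, a catalytic subunit of protein kinase A, averaged 9.92 ± 0.56 in LR-HR and 7.91 ± 0.73 in LR-LR (SD, n = 5 each), with a change of 2.02 ± 0.34 (SE), adjusted p = 0.00132. Both a catalytic and the regulatory subunit of calcineurin rose, Ppp3cb by 1.36 ± 0.29 (SE), adjusted p = 0.00747, and Ppp3r1 by 1.82 ± 0.26 (SE), adjusted p = 0.000374. Camk2a, the alpha subunit of the calcium and calmodulin dependent kinase II of excitatory neurons, read 10.39, 10.38, 11.10, 11.02 and 10.88 in LR-HR hippocampi, against 8.63, 8.92, 9.53, 8.96 and 10.07 in LR-LR hippocampi. All LR-HR arrays exceeded all LR-LR arrays, and the change was 1.53 ± 0.27 (SE), adjusted p = 0.00189. Camk2b (0.56) passed only with the block, and Nrgn (-0.32), neurogranin, passed in neither. Ion channel subunits were read against the 3.47% of all named transcripts that were called. Of 30 potassium channel subunits none was called (2 with the block, and 1 without LR-LR replicate 1 or 5), with a median change of 0.26. Of 21 sodium and calcium channel subunits 1 rose (4 with the block), Cacna1a (0.96), the pore of the P/Q-type calcium channel, with a median of 0.42. Cacna1a lost its call without any 1 of 7 of the arrays, with adjusted p up to 0.16 without LR-LR replicate 4.

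Growing neurites are rich in the products of another list, immature neuron, cytoskeleton and axon growth, of which 6 of 26 rose, none fell and 12 passed with the block, with a median change of 0.55. Dpysl5, a collapsin response mediator protein, read 10.50, 10.60, 10.52, 10.80 and 10.99 in LR-HR hippocampi, against 8.56, 8.59, 9.58, 7.90 and 9.71 in LR-LR hippocampi. Between groups no arrays overlapped, although LR-LR replicates 3 and 5 were well above the others of their group, and the change was 1.81 ± 0.28 (SE), adjusted p = 0.000596. Tubb2b, a beta-tubulin of young neurons, read 13.78, 13.69, 13.63, 13.82 and 14.40 in LR-HR hippocampi, against 12.50, 12.27, 11.92, 12.54 and 13.28 in LR-LR hippocampi. These did not overlap, with a change of 1.36 ± 0.24 (SE), adjusted p = 0.00176. Cdk5r1 (1.75), the activator p35 of the kinase Cdk5, Robo1 (1.23) and Dcc (1.04), guidance receptors for Slit and netrin, and Crmp1 (1.11) rose too. Dcx (0.53), Tubb3 (0.52) and Stmn2 (0.04) passed in neither fit. Robo1 lost its call without any 1 of 5 of the arrays, with adjusted p up to 0.0819 without LR-LR replicate 2, and the count of rises was 3 without LR-HR replicate 5 or LR-LR replicate 2.

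Among 12 neuronal transcription factors 3 rose, none fell and 5 passed with the block, with a median change of 0.56. Zbtb18 and Nfia, described above, were among them. Of 25 genes of beta-catenin, cadherin and Wnt signalling, 2 rose, 6 passed with the block and the median was 0.44. Leaving out LR-LR replicate 5, or replicate 5 of every group, gave 4 rises. The second of them was Cdh2, N-cadherin, the binding partner of beta-catenin at synapses, which read 9.50, 9.88, 9.86, 9.55 and 10.06 in LR-HR hippocampi, against 8.33, 8.39, 8.99, 7.95 and 9.29 in LR-LR hippocampi. No arrays overlapped, and the change was 1.18 ± 0.26 (SE), adjusted p = 0.0111. Axin2 (0.50), Ccnd1 (0.42) and Lef1 (-0.23), members of the list chosen here after their values were seen, did not pass.

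Hmgcs1, which makes the HMG-CoA that enters sterol synthesis, read 10.20, 10.06, 10.41, 10.18 and 10.82 in LR-HR hippocampi, against 7.29, 7.67, 8.49, 7.36 and 9.42 in LR-LR hippocampi. All LR-LR arrays lay below all LR-HR arrays, and LR-LR replicates 3 and 5 were the highest of their group. Its change was 2.29 ± 0.32 (SE), adjusted p = 0.000297. Of 24 genes of cholesterol synthesis and its regulators, 3 rose, none fell and 10 passed with the block, with a median change of 0.52. Insig1, the sterol-sensing brake on the pathway, rose by 0.93 ± 0.24 (SE), adjusted p = 0.0339, and lost its call without any 1 of 7 of the arrays (adjusted p up to 0.109 without LR-LR replicate 2). Cyp51 (0.92), Lss (0.85) and Sqle (0.64) passed only with the block, while Fdps (0.12) and Idi1 (-0.21) passed in neither. The count of rises was 1, Hmgcs1, without LR-HR replicate 5, and also 1 without LR-LR replicate 2 or 4, and it was 6 without LR-LR replicate 5.

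Astrocyte genes did not move as one list. Of 18 measured, 4 rose, none fell and the median change was 0.30, while with the block 7 were higher and 2 lower. The count of rises was 2 without LR-HR replicate 4 or LR-LR replicate 4, and 7 without LR-LR replicate 5. Slc1a3 read 10.25, 10.03, 10.41, 10.10 and 9.89 in LR-HR hippocampi, against 7.65, 7.80, 8.63, 8.44 and 9.21 in LR-LR hippocampi. The groups did not overlap, and the change was 1.79 ± 0.27 (SE), adjusted p = 0.000514. Gja1, connexin 43 of astrocyte gap junctions, read 10.23, 10.21, 10.65, 10.34 and 10.83 in LR-HR hippocampi, against 8.27, 8.51, 8.76, 8.86 and 9.99 in LR-LR hippocampi. No arrays overlapped, and the change was 1.57 ± 0.29 (SE), adjusted p = 0.00289. Gjb6, connexin 30, had a change of -1.16 and Aldh1l1 of -0.60, and both were lower only with the block, while Gfap (0.63), S100b (0.09) and Aldoc (0.11) passed in neither fit.

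A proteoglycan of the brain matrix was among the leading rises. Ncan, neurocan, a chondroitin sulphate proteoglycan of the young brain matrix, read 11.19, 11.33, 11.65, 11.35 and 11.19 in LR-HR hippocampi, against 8.73, 9.14, 9.35, 8.51 and 10.19 in LR-LR hippocampi. The highest LR-LR array, replicate 5, still lay below the lowest LR-HR arrays. The change was 2.16 ± 0.26 (SE), adjusted p = 6.27e-05. Of 15 genes of perineuronal nets and matrix proteoglycans 3 rose, the others being the cell surface heparan sulphate proteoglycans Gpc1 (1.57 ± 0.35 (SE), adjusted p = 0.0103) and Sdc3 (1.27 ± 0.30 (SE), adjusted p = 0.0154), and 4 passed with the block, with a median of 0.14. Acan (-0.38), Bcan (-0.29) and Tnr (-0.28), components of mature nets, and Hapln1 (0.14) did not pass. Sdc3 lost its call without LR-HR replicate 5 (adjusted p = 0.0649) and without LR-LR replicate 1.

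Regulators of RNA and protein folding contributed smaller sets. Of 17 RNA binding and splicing genes 4 rose, none fell and 8 passed with the block, with a median of 0.56. They were Ptbp2 (1.09 ± 0.21 (SE), adjusted p = 0.00417), the neuronal splicing repressor, whose groups did not overlap but whose signal was at or below the random control on 2 of the LR-LR arrays, Celf1 (1.30), Celf2 (1.35) and Srsf3 (0.79). Celf1, Celf2 and Srsf3 each lost the call without single arrays, with adjusted p of up to 0.11 for Celf1 (LR-HR replicate 5 left out), 0.151 for Celf2 (LR-LR replicate 4) and 0.0939 for Srsf3 (LR-LR replicate 2), and another transcript of Celf2 was not called (adjusted p = 0.0659). The count of this list was 1 or 2 without any 1 of the arrays but LR-HR replicates 1 and 2 and LR-LR replicate 5. Of 21 heat shock and chaperone genes 3 rose, with a median of 0.20 and 6 with the block. Leaving out LR-LR replicate 5 gave 5, and the count was 1 without any 1 of LR-HR replicates 3, 4 and 5 and LR-LR replicates 1, 2 and 4. Dnajc5, the cysteine string protein that folds SNARE proteins at terminals, rose by 1.59 ± 0.24 (SE), adjusted p = 0.000522, with no overlap between groups. Tcp1 (1.37) and Hsp90b1 (1.25) were the others, and both lost the call without any 1 of 7 of the arrays (adjusted p up to 0.122 for Tcp1, with LR-LR replicate 4 left out, and up to 0.107 for Hsp90b1, with LR-HR replicate 5 left out).

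**Figure D4:**
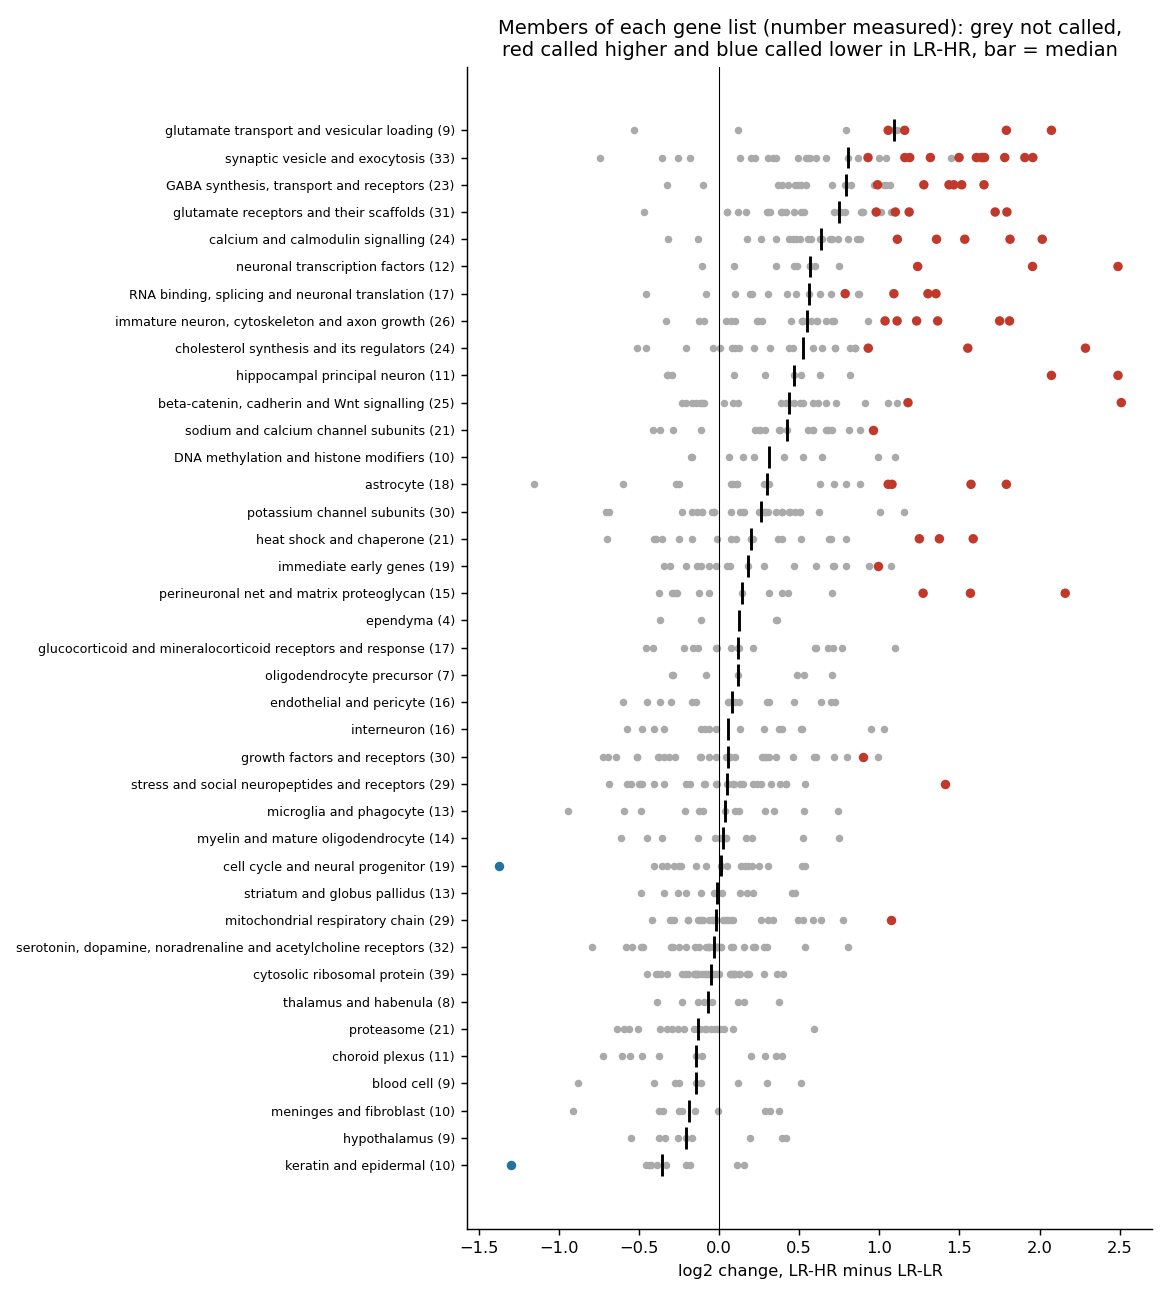
Each row is a gene list with the number of genes measured, and each point the log2 change (LR-HR minus LR-LR, horizontal) of a member. Grey points were not called, red points were called higher and blue points lower in LR-HR, and bars are medians, which run from -0.36 for keratins to 1.09 for glutamate transport.

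The falls with a gene symbol were few, 19 of the 178, and came mostly from outside the lists. The 10 leading falls given below are the largest of those with a symbol. Over all 178 falls the median change was -1.12 and the largest -2.10, so the falls named here are not the largest measured. Mnat1, an assembly factor of the CDK-activating kinase, read 6.87, 6.99, 7.44, 6.32 and 7.78 in LR-HR hippocampi, against 8.43, 7.59, 8.83, 8.84 and 8.61 in LR-LR hippocampi. LR-LR replicate 2 at 7.59 lay below LR-HR replicate 5 at 7.78, so that the groups overlapped by these arrays, and the change was -1.38 ± 0.28 (SE), adjusted p = 0.00545. Krt18, a keratin of simple epithelia, read 6.58, 6.48, 6.21, 6.14 and 5.96 in LR-HR hippocampi, against 7.28, 8.20, 7.16, 8.41 and 6.80 in LR-LR hippocampi. All LR-HR arrays were below all LR-LR arrays, and LR-LR replicates 2 and 4 were the highest. The change of Krt18 was -1.30 ± 0.28 (SE), adjusted p = 0.00992. Timm21 (-1.10 ± 0.29 (SE), adjusted p = 0.0369), a subunit of the inner mitochondrial membrane import machinery, and Tomm20l (-1.11 ± 0.31 (SE), adjusted p = 0.049), a relative of an outer membrane import receptor, overlapped between groups, and Eci2 (-1.05 ± 0.24 (SE), adjusted p = 0.0125), an isomerase of fatty acid oxidation, did not. Dio1, the type 1 deiodinase that activates thyroid hormone, read 6.09, 5.91, 6.58, 6.0 and 6.0 in LR-HR hippocampi, against 7.31, 7.06, 7.53, 6.77 and 6.79 in LR-LR hippocampi. No arrays overlapped, LR-HR replicate 3 was the highest of its group, and the change was -0.98 ± 0.25 (SE), adjusted p = 0.0306.

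The remaining leading falls were Il11ra1 (-1.06 ± 0.28 (SE), adjusted p = 0.036), a receptor subunit for interleukin 11, C16h19orf44 (-1.06 ± 0.24 (SE), adjusted p = 0.0137), Gpalpp1 (-1.0 ± 0.25 (SE), adjusted p = 0.0284) and the olfactory receptor Or8b46c (-1.02 ± 0.25 (SE), adjusted p = 0.0237). Or8b46c was at or below the random control on 4 LR-HR arrays and 1 LR-LR array, and Tomm20l on 1 LR-HR array, and their changes rest on faint signals there. Of the 10 leading falls, Mnat1, Krt18 and Eci2 kept the call without any single array, with adjusted p up to 0.023, 0.044 and 0.0422. The other 7 lost it without at least 2 of the arrays, with adjusted p up to 0.171 for Tomm20l and 0.124 for Il11ra1.

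Genes often studied in relation to maternal care did not pass. Nr3c1, the glucocorticoid receptor, read 5.99, 6.54, 6.37, 6.92 and 5.96 in LR-HR hippocampi, against 6.20, 6.07, 6.78, 5.82 and 6.98 in LR-LR hippocampi. The groups overlapped over almost their whole ranges, LR-LR replicate 4 lay at or below the random control, and the change was -0.02 ± 0.25 (SE), adjusted p = 0.989. Of 17 genes of glucocorticoid and mineralocorticoid receptors and response, none was called in either direction, with a median change of 0.12. Only Sgk1 (1.10), a kinase induced by glucocorticoids, passed with the block. At the 3.47% share of all named transcripts called, a list of this size would hold few or no calls. Without LR-LR replicate 5, and without replicate 5 of every group, 2 of the list were called higher. The mineralocorticoid receptor Nr3c2 had a change of 0.60 ± 0.25 (SE), adjusted p = 0.245. Crh (0.09 ± 0.42 (SE), adjusted p = 0.952), corticotropin-releasing hormone, and its receptor Crhr1 (0.42 ± 0.37 (SE), adjusted p = 0.667) were likewise not called. Among 29 stress and social neuropeptides and receptors only Adcyap1r1, the PAC1 receptor for the peptide PACAP, was called, near the 3.47% of all named transcripts called. It read 7.98, 8.24, 8.52, 8.95 and 8.28 in LR-HR hippocampi, against 6.43, 6.65, 7.75, 6.86 and 7.25 in LR-LR hippocampi. No array of one group lay within the other, and the change was 1.41 ± 0.30 (SE), adjusted p = 0.00698.

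Bdnf, the neurotrophin of activity-dependent plasticity, read 7.77, 7.91, 7.46, 7.09 and 7.55 in LR-HR hippocampi, against 8.10, 8.02, 7.81, 7.66 and 7.90 in LR-LR hippocampi. The ranges overlapped, although each LR-HR array was below the LR-LR array of the same number, and the change was -0.34 ± 0.25 (SE), adjusted p = 0.584. Fgf2, a growth factor linked to anxiety in these lines, read 10.30, 9.65, 8.55, 8.39 and 7.66 in LR-HR hippocampi, against 10.91, 10.16, 8.99, 8.65 and 8.40 in LR-LR hippocampi. In both groups replicate 1 was the highest and replicate 5 the lowest. The arrays overlapped, although each LR-HR array was below the LR-LR array of the same number. The change was -0.51 ± 0.54 (SE), adjusted p = 0.731, and with the block the SE was 0.21 and the adjusted p = 0.132. Igf1 (-0.31 ± 0.28 (SE), adjusted p = 0.677), the DNA methyltransferase Dnmt3a (0.41 ± 0.29 (SE), adjusted p = 0.569) and the serotonin receptor Htr1a (0.81 ± 0.32 (SE), adjusted p = 0.216) were not called. In 30 growth factors and receptors 1 rose (4 higher and 1 lower with the block), near the 3.47% of all named transcripts called. It was Fgf13 (0.90), and it lost the call without any 1 of 7 of the arrays (adjusted p up to 0.149 without LR-LR replicate 2). None of 10 genes of DNA methylation and histone modification (1 without replicate 1 of LR-HR or of LR-LR) and none of 32 monoamine and acetylcholine receptors was called. Of 19 immediate early genes 1 was (3 with the block), Egr3 (0.99). At the same 3.47%, lists of these sizes would hold few or no calls. Egr3 lost the call without replicate 5 of every group and without any 1 of 7 of the arrays (adjusted p up to 0.133 without LR-LR replicate 1). Of the immediate early genes, 4 were called without LR-LR replicate 5 and 2 without replicate 5 of every group.

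Markers of other cell types were read against the share of named transcripts called in either direction, 3.47%. None of 14 myelin genes, 13 microglial genes, 16 endothelial and pericyte genes, 11 choroid plexus genes, 4 ependymal genes, 10 meningeal genes or 9 blood genes was called in either direction. Leaving out 1 array changed this only for microglia, with 1 lower without LR-LR replicate 2, and for endothelium, with 1 higher without LR-HR replicate 4. Faint signals and small sizes limit these lists, which would hold few or no calls at 3.47%. Above the random control on all 20 arrays were 7 of the 14 myelin, 9 of 13 microglial, 7 of 16 endothelial and 5 of 11 choroid plexus genes. The same held for 2 of 4 ependymal, 4 of 10 meningeal and 5 of 9 blood genes. The medians were 0.02 for myelin, 0.04 for microglia, 0.08 for endothelium, -0.14 for choroid plexus, 0.12 for ependyma, -0.19 for meninges and -0.15 for blood. With the block, Aif1 (-0.94), Slc6a13 (-0.91) and S100a9 (-0.88) were lower and Pdgfrb (0.70) higher among them. The mean of the 14 myelin genes was 6.77 to 7.34 in LR-HR and 6.72 to 7.32 in LR-LR, and that of the 9 blood genes 9.53 to 9.85 in LR-HR and 9.64 to 10.05 in LR-LR, so that the groups overlapped. Of 10 keratin and epidermal genes Krt18 alone fell, 8 had changes below 0, and the array means of the list were 6.18 to 6.73 in LR-HR and 6.43 to 7.11 in LR-LR. The part of these lists in the results above was not tested.

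Neighbouring brain regions were checked by the same means, since the share of tissue around the hippocampus can differ between dissections. None of 8 thalamic, 13 striatal or 9 hypothalamic markers was called, with medians of -0.07, -0.02 and -0.20, and 5 of the 8 thalamic, 5 of the 13 striatal and 4 of the 9 hypothalamic markers lay above the random control on all 20 arrays. Of 11 markers of hippocampal principal neurons 2 rose, Zbtb18 and Slc17a7, and the list had a median of 0.47, with Nrgn (-0.32), Pou3f1 (-0.33) and Wfs1 (-0.30) below 0. Of 16 interneuron markers none was called (1 without LR-LR replicate 5), with a median of 0.06, and with the block Gad1 (1.03) and Kit (0.95) were higher and Npy (-0.58) lower. None of 39 ribosomal protein genes (median -0.05) and none of 21 proteasome genes (median -0.13) was called, and among 19 genes of the cell cycle and of neural progenitors Mnat1 alone was.

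The unfostered groups were measured on the same day of life, and their levels show where the fostered groups lay. Over the 576 rises, the array mean was 9.17, 9.07, 9.39, 9.28 and 9.63 in LR-HR, 7.81, 7.77, 7.92, 7.79 and 8.68 in LR-LR, 8.72, 8.67, 8.83, 8.69 and 9.10 in LR and 8.85, 8.80, 9.19, 8.98 and 9.41 in HR. LR-LR was the lowest group at each replicate number, and LR-HR the highest. Over the 178 falls it was 8.06, 8.04, 8.04, 7.90 and 7.96 in LR-HR and 9.15, 9.08, 9.31, 9.17 and 9.09 in LR-LR, with a mean of 7.70 in LR and 8.04 in HR. LR-LR stood above every other array for these transcripts. These transcripts were chosen by LR-HR and LR-LR, so only the LR and HR positions add to the comparison: the LR mean was nearer to LR-HR than to LR-LR for 407 of the rises and 165 of the falls, and the HR mean for 512 and 171.

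Set against unfostered LR pups, LR-HR differed in 53 transcripts (0.205%), 46 of them higher. Single arrays moved that count, to 32, 23, 29 and 26 when LR-HR replicate 1, 3, 4 or 5 was left out in turn and to 34 without LR replicate 4. It was 30 with quantile normalization and 461 with the replicate block. LR-LR differed from LR in 670 (2.59%), 493 of them higher. These comparisons share the LR arrays, and each shares arrays with the foster comparison, so their values are only given side by side. Ctnnb1 had a change against LR of 0.40 in LR-HR (adjusted p = 0.725) and of -2.11 in LR-LR (adjusted p = 0.00021). For Zbtb18 the values were 0.54 in LR-HR and -1.95 in LR-LR, and for Slc17a7 0.51 and -1.57. In all 3, LR-LR passed (adjusted p = 9.11e-05 for Zbtb18 and 0.000375 for Slc17a7) and LR-HR did not. Nfia was the reverse, at 1.25 in LR-HR (adjusted p = 0.0384) and -0.71 in LR-LR (adjusted p = 0.201). Krt18 was at -0.06 in LR-HR and at 1.24 in LR-LR (adjusted p = 0.0118). Over the synaptic vesicle list the medians were 0.26 for LR-HR minus LR and -0.46 for LR-LR minus LR. With the replicate block LR-LR minus LR gave 1663 calls, and under quantile normalization the 670 became 793, of which 63.1% were higher in place of 73.6%.

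The comparison was repeated with other pups at P14, P21 and adulthood, in a fit of all 80 hippocampal arrays. Over all transcripts the foster comparison called 18 (0.0695%) at P14, 2990 (11.5%) at P21 and 1 (0.00386%) in adults. In the same fit it called 503 at P07, in place of the 754 of the 20 arrays at P07, which gave the rises and falls followed here. Of the 576 transcripts that rose at P07, 522 (90.6%) had a change below 0 at P14, against 48.7% of all transcripts, with a median of -0.53. At P21 519 of them (90.1%) were above 0, against 45.3% of all, with a median of 0.91, and 244 (42.4%) were called higher, against 8.95% of all. In adults the median was -0.10 and none was called. Leaving out single P21 arrays moved the 244 between 140 (24.3%, against 5.05% of all) without LR-LR replicate 1 and 350 (60.8%, against 12.8%) without LR-LR replicate 4. It was 144 without LR-LR replicate 2, 147 without LR-LR replicate 3 and 349 without LR-LR replicate 5. Of the 178 falls, 129 (72.5%) were below 0 at P14, against 48.7% of all transcripts. At P21 132 of them (74.2%) were below 0, against 54.7% of all, and 18 were called lower, against 2.59% of all.

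Among leading genes the changes at later ages followed these counts in part. Ctnnb1, at 2.51 at P07, had changes of -0.79 ± 0.44 at P14, 1.51 ± 0.44 at P21 and -0.35 ± 0.44 in adults. Slc17a7 had changes of -0.99 ± 0.57 at P14, 2.66 ± 0.57 at P21 and -0.42 ± 0.57 in adults. Both were called higher at P21 (adjusted p = 0.0148 for Ctnnb1 and 0.0006 for Slc17a7), and both differed between P07 and P14 (adjusted p of the difference 0.000831 and 0.0231). Ncan had changes of -1.26 ± 0.29 at P14, 0.12 ± 0.29 at P21 and -0.46 ± 0.29 in adults, so that its change at P07 differed from each of the other ages (adjusted p = 4.22e-08, 0.00481 and 0.00012). Mnat1 had changes of 0.43 ± 0.26 at P14, -0.08 ± 0.26 at P21 and 0.36 ± 0.26 in adults, and differed at P14 and in adults. Krt18 had changes of 0.20 ± 0.32 at P14, 0.09 ± 0.32 at P21 and 0.26 ± 0.32 in adults, with no difference that passed. Of the 22 leading genes, 17 differed between P07 and P14, 2 between P07 and P21 and 9 between P07 and adulthood, against 2%, 0.981% and 0.286% of all transcripts, but the P07 values that chose these genes enter each difference.

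**Figure D5:**
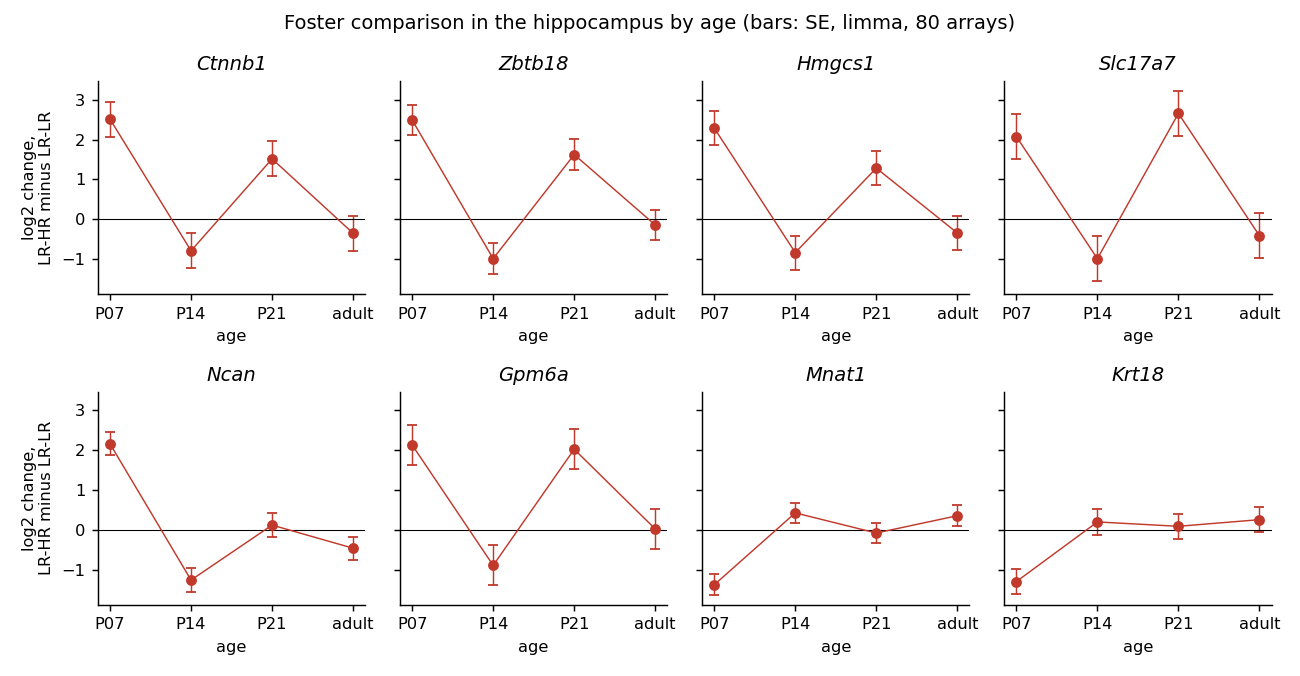
Each panel gives the log2 change of a gene (LR-HR minus LR-LR, vertical) at P07, P14, P21 and in adults (horizontal), with bars for the SE from a limma fit of 80 arrays. The 6 rises shown lie above 0 at P07, below 0 at P14 and above 0 at P21, where Ncan is close to 0, and the 2 falls are below 0 only at P07 beyond their SE.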

How the data were processed

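The authors deposited 1-colour NimbleGen intensities per transcript on a linear scale, which the submitters' processing notes call RMA values, with a version not given in the sources used here. Hippocampus and amygdala were normalized apart, so the amygdala was not used. Intensities were taken to log2 with no pseudocount and no filter. For the 20 arrays at P07 the linear model was that of limma (version 3.58.1, run in R 4.3.3), with 1 mean per rearing group and empirical Bayes variances, and p-values were adjusted by Benjamini-Hochberg over 25897 transcripts, with a call at an adjusted p under 0.05. The ages were compared in 1 fit of 80 arrays with 16 group means. Accessions were named through a RefSeq table of build GRCr8 (9505 matched, 9386 distinct symbols), and a gene with several transcripts was represented by the brightest. The fit was tested on simulated data. Summaries used Python 3.11.15, pandas 2.3.3 and numpy 2.4.6.

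Among transcripts with a gene symbol, the text names the 12 largest rises and the 10 largest falls. It also names up to 4 called members of each of 39 gene lists per direction. A panel of 18 genes of maternal care, stress, synapses and the leading results was added, with further list members given as values. Some genes that this rule picks are not reported here, though the list counts include them. The members and lists were chosen with earlier results of these data known. Replicate numbers are shared between the groups. The deviations of same-numbered LR-HR and LR-LR arrays from their group means correlated at 0.421, 0.431, 0.105, 0.135 and 0.644, all over the 0.1 set for pairing, so blocked counts are given beside the main ones. The pairing comes from the data, and the labels do not say what a number stands for. The number of arrays limits the precision.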

Additional observations from a re-analysis of the deposited data

Results flagged for a closer look

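In 14 of 136 groups of 5 arrays, over the genes reported, 1 array stood apart from the other 4 of its group by Dixon's test (critical value 0.71). Chance gives this in about 1 of 20 independent groups. These groups are genes read on the same LR-HR and LR-LR arrays, so they are not independent and the 14 cannot be judged by that rate. LR-LR replicate 5 was the array in 9 of the 14, always above its group. It read 11.73 for Glud1 (10.33 to 10.59 on the other LR-LR arrays), 11.78 for Glul (10.33 to 10.71), 11.08 for Gpm6a (8.97 to 9.5), 9.04 for Grin2d (7.8 to 7.99) and 8.62 for Nfia (7.3 to 7.59). It also read 8.53 for Nrn1 (7.14 to 7.46), 8.27 for Opcml (6.34 to 6.89), 10.61 for Ywhag (9.2 to 9.55) and 8.97 for Zbtb18 (7.54 to 7.78). LR-HR replicate 5 stood above its group in Cdk5r1 (11.32), Sdc3 (11.03) and Tubb2b (14.4). LR-HR replicate 3 stood above its group in Dio1 (6.58), and LR-HR replicate 1 below it in Gpc1 (9.09).

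Among the 22 leading genes, the change (LR-HR minus LR-LR) differed between P07 and other ages by the interaction term of the limma fit of 80 arrays. The difference P07 minus P14 was positive for Ctnnb1 (3.3), Gpm6a (3.02), Hmgcs1 (3.13), Ncan (3.42), Nfia (2.54), Nrn1 (3.43), Opcml (3.05), Prkacb (3.37), Slc17a7 (3.07), Syt11 (3.24), Ywhag (3.18) and Zbtb18 (3.48). It was negative for C16h19orf44 (-1.35), Gpalpp1 (-1.58), Il11ra1 (-2.16), Mnat1 (-1.8) and Timm21 (-1.64). Between P07 and P21 it was 2.04 for Ncan and -1.5 for Timm21. Between P07 and adulthood it was 2.86 for Ctnnb1, 2.63 for Hmgcs1, 2.62 for Ncan, 1.86 for Nfia, 2.37 for Nrn1, 2.77 for Opcml and 2.64 for Zbtb18, and -1.73 for Mnat1 and -1.89 for Timm21. The P07 values that chose these genes enter each difference.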

How the results depend on the processing

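The 754 calls at P07 became 1311 with array weights, 2263 with the replicate block, 1929 with the block and only the LR-HR and LR-LR arrays, 2157 with the block and quantile normalization, and 1773 with the block and no replicate 5 of any group. Leaving out 1 array gave 414 to 1369 calls, and 1608 to 2233 with the replicate block. Quantile normalization (902), only the LR-HR and LR-LR arrays (520), all 80 arrays (503), brighter transcripts (901), transcripts above the random control (750), 32 added before log2 (862), trend and robust variance (747) and no replicate 5 of any group (1087) stayed within 1.5 times. The block fits other than the plain one, and those without replicate 5 of every group, were chosen after seeing the data.

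The block kept all 754 calls and raised the count over all transcripts to 2263. Of the 73 genes under the naming rule, 63 were already called without the block, so few could be added, and only Gad1 was. Of the 63 called genes under the naming rule, 32 were called under every alternative. None reversed in 2075 values, of which 197 lost the call. In unweighted fits of all LR-HR and LR-LR arrays on unaltered values, the change is the same difference of group means and could not reverse. LR-HR minus LR gave 53 calls, 461 with the replicate block, 30 with quantile normalization and 23 to 55 without 1 array. LR-LR minus LR gave 670 calls, 1663 with the block and 508 to 959 without 1 array. The difference of P07 minus P14 gave 517 calls, 1104 with the block and 351 to 649 without 1 array. P07 minus P21 gave 254, 884 with the block, and 111 (without LR-HR P07 replicate 2) to 978 (without LR-LR P21 replicate 4). P07 minus adult gave 74, 349 with the block, 147 with quantile normalization, and 34 (without LR-LR P07 replicate 4) to 119 (without LR-LR P07 replicate 5). Same-numbered arrays were not paired by the rule at P14 (lowest correlation 0.093), at P21 (-0.234) or between LR-HR and LR (0.088), so their blocked counts share a number only.

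Nr3c1 and Crh, neither called, changed sign. Nr3c1 had 0.032 with quantile normalization with or without the block, 0.073 with array weights, 0.24 without replicate 5 of every group with or without the block, and -0.21 to 0.20 over fits without 1 array, blocked or not. Crh had -0.18 to 0.36 over fits without 1 array, blocked or not. The cause of these shifts was not tested. Faint probe sets, at or below the random control on 1 or more arrays, limit Or8b46c, Tomm20l, Nr3c1, Gphn, Ptbp2 and Syt4.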

Other observations

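Of 29 genes of the mitochondrial respiratory chain 1 rose at P07, near the 3.47% of all named transcripts called. This was Uqcrc2, a core subunit of complex III. It read 9.07, 9.22, 9.96, 10.16 and 10.01 in LR-HR hippocampi, against 8.10, 8.51, 8.68, 8.39 and 9.37 in LR-LR hippocampi. LR-LR replicate 5 lay above LR-HR replicates 1 and 2. The change was 1.07 ± 0.28 (SE), adjusted p = 0.0341 by limma, and the call was lost without any 1 of 7 of the arrays. With the replicate block 4 of the list were higher, the others being Ndufs1 (0.77), Ndufv2 (0.64) and Cycs (0.59), while the median of the list was -0.02. Of 7 markers of oligodendrocyte precursors none was called, and Ptprz1 (0.71) was higher with the block. Tet3, an enzyme that oxidises methylated cytosine, had a change of 1.10 (adjusted p = 0.0531, and 0.0256 with the block).

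Fgf2 had its highest and lowest arrays at the same replicate numbers in all 4 groups. Replicate 1 read 10.30 in LR-HR, 10.91 in LR-LR, 10.62 in LR and 10.34 in HR. Replicate 5 read 7.66, 8.40, 8.62 and 7.45 in the same groups, and was the lowest of each.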
